A study of Mus musculus with 8 samples.

Results

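The 8 hearts of the series differed up to 20.6-fold in the signal of Myl7, the regulatory myosin light chain of atrial muscle, and are compared here by that signal. The array carries 1 probe for Myl7. Its log2 signal, taken after subtracting the 75th percentile of all spots outside the controls on the same array, ranked the hearts, which were thus chosen by a measured value: the 4 highest are called atrial-rich and the 4 lowest atrial-poor. All 8 of 8 hearts were used, 4 on each side. The names describe the Myl7 signal alone, since the labels give the tissue as heart and do not say how much of the atria was collected with it.

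RNA came from hearts of male C57BL6 mice, 4 labelled control and 4 labelled dtg (double transgenic). Control mice carried Cre recombinase and no floxed IGF-1R gene, and dtg mice had the genotype merCremer/+ IGFloxP/IGFloxP, so that Cre was common to both groups. Every mouse was given 500 µg of 4OH-Tamoxifen, the compound that activates merCremer, daily for 10 days at 8 months of age, in order to remove exon 3 of Igf1r, the receptor gene for insulin-like growth factor 1, and hearts were taken 6 weeks later. The promoter that drives Cre is not given in the labels. It is not stated in the labels whether each sample is a different animal, and the p-values below therefore speak only of the spread among these 8 samples, part of which may be technical.

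Atrial and ventricular heart muscle cells use different versions of several contractile and calcium-handling proteins. In the mouse the atria express the light chains Myl7 and Myl4, the calcium pump inhibitor sarcolipin (Sln), the thick filament protein Mybphl and large amounts of atrial natriuretic peptide (Nppa), which is stored in granules and secreted when the atrial wall is stretched. Adult ventricles use Myl2 and Myl3 in place of the atrial light chains. In RNA from whole tissue, more cells of a type and more RNA per cell cannot be told apart.

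The log2 Myl7 signal was 5.31 in control 4, 4.83 in dtg 4, 4.62 in control 3 and 3.59 in control 1, which formed the atrial-rich side. It was 3.26 in dtg 1, 1.44 in dtg 3, 1.04 in control 2 and 0.95 in dtg 2, which formed the atrial-poor side. The hearts just inside and just outside the split, control 1 and dtg 1, lay 0.33 apart, whereas the next step down, from dtg 1 to dtg 3, was 1.83. The split into equal sides thus did not lie at the widest gap in the ranking. Quantile and median scaling, normexp background correction with and without spots darker than their background, and the deposited values each put all 8 hearts on the same side.

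Genotype was unevenly spread over the sides. The atrial-rich side held 3 control hearts and 1 dtg heart, and the atrial-poor side 1 control heart and 3 dtg hearts. The arrays lay on 2 slides, read from the barcode in the file headers, with 2 hearts of each side and of each genotype on each slide. On slide 1 each side held 1 control and 1 dtg heart, but on slide 2 both atrial-rich hearts were control and both atrial-poor hearts were dtg, so side and genotype cannot be told apart there.

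The stretches of 250 bases just before the transcription starts of the 5 marker genes were looked up because these genes moved together across the hearts, and 4 of the 5 were matched in the RefSeq table of assembly GRCm38.p6, Sln being the other. Each is written from its far end to the base before the start, with matches to the motifs searched in capitals.
Myl7, chr11:5898783-5899032, minus strand: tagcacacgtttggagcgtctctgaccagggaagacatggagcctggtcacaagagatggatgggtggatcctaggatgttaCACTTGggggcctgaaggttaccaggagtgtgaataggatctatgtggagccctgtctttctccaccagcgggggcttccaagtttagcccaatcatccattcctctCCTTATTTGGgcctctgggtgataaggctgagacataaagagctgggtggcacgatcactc
Myl4, chr11:104550413-104550662, plus strand: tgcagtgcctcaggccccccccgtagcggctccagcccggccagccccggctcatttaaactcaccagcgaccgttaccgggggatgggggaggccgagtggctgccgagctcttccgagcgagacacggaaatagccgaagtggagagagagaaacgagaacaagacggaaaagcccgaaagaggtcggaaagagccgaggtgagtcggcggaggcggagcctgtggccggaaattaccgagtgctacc
Nppa, chr4:148000472-148000721, plus strand: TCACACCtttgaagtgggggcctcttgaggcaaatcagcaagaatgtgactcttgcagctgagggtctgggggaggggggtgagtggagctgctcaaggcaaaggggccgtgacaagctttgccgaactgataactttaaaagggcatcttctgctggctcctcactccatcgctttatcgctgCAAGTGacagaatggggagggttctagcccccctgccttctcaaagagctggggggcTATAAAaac
Mybphl, chr3:108364661-108364910, plus strand: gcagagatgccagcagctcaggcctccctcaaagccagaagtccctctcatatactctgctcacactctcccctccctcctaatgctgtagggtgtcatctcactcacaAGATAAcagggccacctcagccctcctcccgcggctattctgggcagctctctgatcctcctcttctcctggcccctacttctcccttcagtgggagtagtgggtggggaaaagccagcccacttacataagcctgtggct

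Letter patterns of 6 cardiac and general promoter factors were searched on both strands, with no overlap among the matches found. The window of Myl7 held the NKX pattern CAAGTG on the opposite strand at bases -168 to -163 and a CArG box, the pattern bound by serum response factor, at -61 to -52. The window of Nppa held the T-box pattern GGTGTGA on the opposite strand at -250 to -244, the NKX pattern at -66 to -61 and TATAAA at -9 to -4. The window of Mybphl held the GATA pattern AGATAA at -141 to -136, and that of Myl4 held none of the patterns. Only these exact letters were searched, so the related form TGATAA, which stands in the printed windows of Myl7 and Nppa, was not counted. Among 32851 promoter windows of the same length, the NKX pattern was in 11.6%, AGATAA in 9.99%, TATAAA in 12.4%, GGTGTGA in 3.33%, the MEF2 pattern in 3.20% and the CArG box in 1.47%. No pattern, in the exact letters searched, was in more than 2 of the 4 windows, and the matches are letters in these windows, not measured binding.

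The other markers ranked the hearts almost as Myl7 did. They were named with Myl7 when the sides were defined and are given here as a description, without a p-value. The fits over all features below include them, and their calls there are no independent test. Sln was at a log2 signal of 6.30 in control 4, 5.82 in dtg 4, 5.73 in control 3 and 4.51 in control 1, and at 4.35 in dtg 1, 2.18 in dtg 3, 1.37 in control 2 and 1.64 in dtg 2. The mean difference of Sln between the sides was 3.20 ± 0.68 on the log2 scale (SE, 4 hearts a side), or 9.22-fold. As for Myl7, dtg 1 lay within 0.16 of control 1 and 2.17 above the next heart, so that 5 hearts were high and 3 were low.

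Myl4 showed the same step. It was at 7.78 in control 4, 7.26 in dtg 4, 7.09 in control 3 and 6.06 in control 1, and at 5.98 in dtg 1, 4.37 in dtg 3, 3.78 in control 2 and 3.80 in dtg 2, a difference of 2.57 ± 0.55 or 5.93-fold. Mybphl was at 2.25 in control 4, 1.56 in dtg 4, 2.03 in control 3 and 0.81 in control 1, and at 0.65 in dtg 1, -1.17 in dtg 3, -2.17 in control 2 and -2.16 in dtg 2, a difference of 2.88 ± 0.64 or 7.35-fold. The lowest atrial-rich heart stood above the highest atrial-poor heart for both genes, by 0.076 for Myl4 and 0.16 for Mybphl.

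Nppa had the smallest difference of the 4, at 2.0 ± 0.44 or 4.01-fold. Its signal was 8.17 in control 4, 7.97 in dtg 4, 7.98 in control 3 and 7.25 in control 1, and 7.21 in dtg 1, 5.41 in dtg 3, 5.20 in control 2 and 5.53 in dtg 2. The genes did not order neighbouring hearts identically: Nppa and Mybphl placed control 3 above dtg 4, and all 4 placed control 2 lowest, where Myl7 placed dtg 2 lowest. On slide 1 the sides differed by 2.31 for Sln, 1.78 for Myl4, 1.95 for Mybphl and 1.40 for Nppa, and on slide 2 by 4.10, 3.35, 3.81 and 2.61 in the same order.

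**Figure D1:**
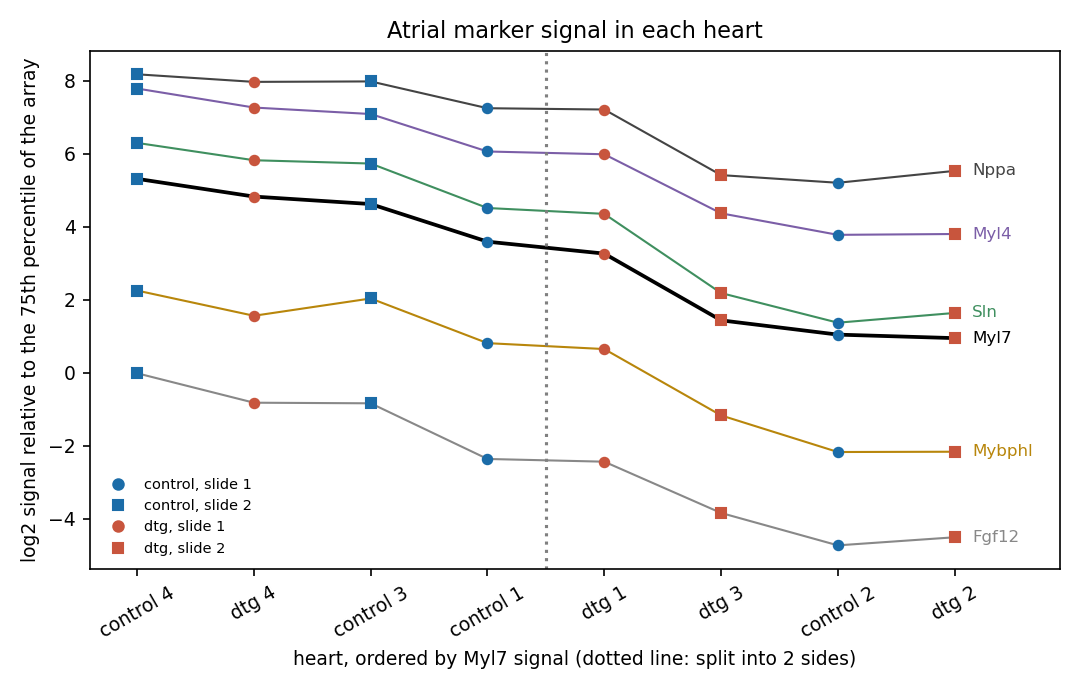
Signal of Myl7, the other 4 atrial markers and Fgf12 in each heart, on a log2 scale with the array's 75th percentile at 0, with hearts ordered by Myl7 from highest to lowest. Point colour gives genotype, point shape the slide, and the dotted line the split into sides. The 5 hearts on the left, dtg 1 included, lie above the 3 on the right for every gene drawn.

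The comparison of all other features asked what else differed between hearts with more and less atrial signal. Of 21411 features tested with limma, 0 (0%) passed a Benjamini-Hochberg adjusted p of 0.05 between the sides, the smallest adjusted p being 0.999. Before adjustment 697 had a p under 0.05, 345 of them higher and 352 lower in atrial-rich hearts. All 4 atrial-rich hearts lay above all 4 atrial-poor hearts for 239 of the 21383 features measured on all arrays (1.12%) and below them for 264 (1.23%), together 503 (2.35%). A log2 difference of 1 or more was seen for 60 features (0.280%) and of -1 or less for 74 (0.346%). The 4 markers described above, with differences of 4.01-fold to 9.22-fold, were not called either, and their spread within a side was wide, dtg 1 carrying nearly as much atrial signal as control 1.

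Leaving out the boundary hearts control 1 and dtg 1, a choice made after the ranking was seen, gave 6 features past the threshold, all higher in the atrial-rich hearts. They were Sln, Myl4, Nppa, Ppp1r1b, Mlana and the unnamed transcript ENSMUST00000144863. Using the Myl7 level itself in place of the sides gave 13 of 21411 features (0.0607%), all higher where Myl7 was higher, against 1458 at an unadjusted p under 0.05, of which 598 were higher and 860 lower with Myl7. The 13 included those 6, together with Mybphl, Fgf12, Rab3b, Sds, Sytl2, Adamts19 and the predicted transcript XM_001477810. Both the sides and the level come from Myl7 in these hearts, so a call says that a gene went with Myl7 among them and is no test of an assigned condition. Genes named here from the fit on the Myl7 level were chosen after seeing their values.

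Leaving out 1 heart at a time called between 8 and 12 features, with 8 in each case when control 3, control 4, dtg 2 or dtg 4 was left out, and 8 of the 13 were called each time, namely Myl4, Sln, Nppa, Mybphl, Fgf12, Rab3b, Sds and ENSMUST00000144863. With genotype as a covariate the same 8 features were called. With genotype and slide together 8 were called, of which 7 were among the 13, Rab3b being lost at an adjusted p of 0.053 in limma and Cracd, named here only for this count, being added. Mlana, Ppp1r1b, Sytl2 and Adamts19 each had an adjusted p of 0.17 in limma with genotype as a covariate, and XM_001477810 one of 0.14. Without control 4, dtg 3 and dtg 4 together, no feature passed limma's test, with 287 at an unadjusted p under 0.05. The slope of Fgf12 was 1.0 with all hearts and 0.99 without those 3, that of Mybphl 1.01 and 1.17, and that of XM_001477810 0.59 and 0.47.

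Sln changed by 1.12 ± 0.04 log2 units per log2 unit of Myl7 (SE, 8 hearts), Mybphl by 1.01 ± 0.06, Myl4 by 0.90 ± 0.03 and Nppa by 0.70 ± 0.05. A slope of 1 means that a gene changed by the same factor as Myl7. Nppa thus spanned a narrower range than the others, 7.84-fold over the 8 hearts against 30.4-fold for Sln. Ventricles can also express Nppa, but the reason for its lower slope was not tested.

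Fgf12, which encodes an intracellular member of the fibroblast growth factor family that binds voltage-gated sodium channels, had a slope on Myl7 near that of Mybphl. Its log2 signal was -0.015 in control 4, -0.82 in dtg 4, -0.84 in control 3 and -2.36 in control 1, and -2.44 in dtg 1, -3.84 in dtg 3, -4.73 in control 2 and -4.51 in dtg 2. The slope was 1.0 ± 0.05 with an adjusted p of 3.1e-04 in limma, and a second Fgf12 probe gave a difference between the sides of 2.85 where the first gave 2.87. On slide 1 alone the slope was 1.02 and on slide 2 alone 1.0, with adjusted p of 0.062 and 0.19 in limma.

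Rab3b, a small GTPase of regulated exocytosis, was at -0.71 in control 4, -1.06 in dtg 4, -0.91 in control 3 and -1.75 in control 1, and at -1.51 in dtg 1, -2.47 in dtg 3, -2.63 in control 2 and -2.90 in dtg 2, with a slope of 0.47 ± 0.04 and an adjusted p of 0.0035 in limma. Sytl2, a synaptotagmin-like protein that tethers vesicles through Rab27, had a slope of 0.40 ± 0.05 and an adjusted p of 0.035 in limma, and lay between -3.57 and -2.86 in atrial-rich hearts and between -4.72 and -3.81 in atrial-poor hearts. The Sytl2 call was lost with quantile scaling and with the deposited values (adjusted p 0.53 in limma for each) and with median scaling (0.15). It was also lost with an intensity trend (0.083) and with no filter on dim probes (0.090).

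Sds, which encodes the enzyme serine dehydratase, was at -2.56 in control 4, -3.05 in dtg 4, -2.92 in control 3 and -3.75 in control 1, and at -3.66 in dtg 1, -4.91 in dtg 3, -5.20 in control 2 and -5.55 in dtg 2. Its slope was 0.63 ± 0.04 with an adjusted p of 6.4e-04 in limma, and it was well above background on 4 atrial-rich and 3 atrial-poor arrays. Ppp1r1b, an inhibitor of protein phosphatase 1, was at -1.16 in control 4, -0.93 in dtg 4, -1.04 in control 3 and -1.42 in control 1, and at -2.01 in dtg 1, -3.05 in dtg 3, -2.89 in control 2 and -2.72 in dtg 2. The sides of Ppp1r1b did not overlap, and its slope was 0.48 ± 0.05 with an adjusted p of 0.034 in limma.

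Mlana, best known as an antigen of pigment cells, was at 0.61 in control 4, 0.13 in dtg 4, 0.22 in control 3 and -0.94 in control 1, and at 0.060 in dtg 1, -3.00 in dtg 3, -2.65 in control 2 and -3.19 in dtg 2. The sides overlapped, with dtg 1 above control 1, and the slope was 0.86 ± 0.10 with an adjusted p of 0.034 in limma. Adamts19, a secreted metalloprotease, lay between -5.17 and -4.35 in atrial-rich and between -5.84 and -5.08 in atrial-poor hearts, with a slope of 0.35 ± 0.04 and an adjusted p of 0.034 in limma. It was well above background on 4 atrial-rich arrays but only 1 atrial-poor array, so its low values are close to the limit of measurement. The atrial-rich arrays alone were enough for it to pass the filter on dim probes, which favoured this direction. Its call is therefore a description only. The Adamts19 call was lost with quantile scaling and with the deposited values (adjusted p 0.77 in limma for each), with an intensity trend (0.69) and with median scaling (0.18). It was also lost with no filter on dim probes (0.090) and with normexp without dark spots (0.54).

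**Figure D2:**
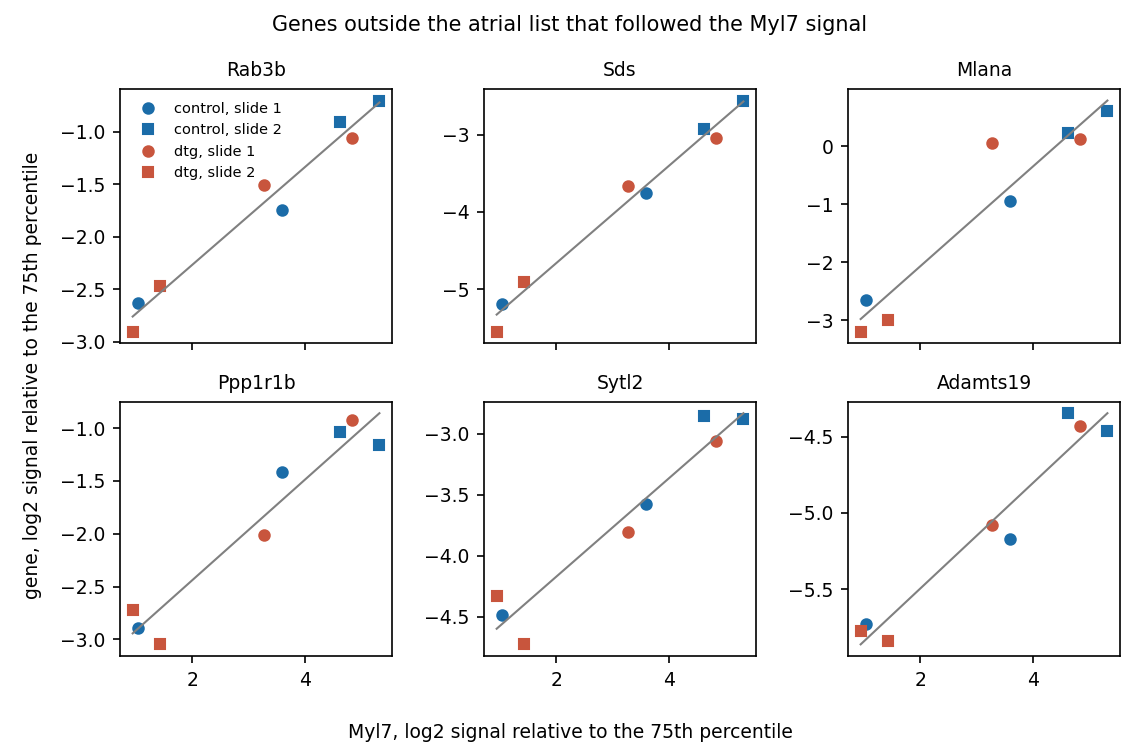
Log2 signal of 6 genes outside the atrial list (vertical axes) against the Myl7 signal of the same heart (horizontal axes), with the fitted line. Point colour gives genotype and point shape the slide. Each gene is lowest in the 3 hearts with the least Myl7, and dtg 1, near 3.26 on the Myl7 axis, lies with the higher hearts for Mlana.

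The atrial list held 28 genes besides Myl7, of which 26 were measured. Of these 22 were higher and 4 lower in atrial-rich hearts, with a median log2 difference of 0.67 (-0.0037 over all features, of which 49.3% were higher). No member passed between the sides, and 5 (Myl4, Sln, Nppa, Mybphl and Fgf12) passed on the Myl7 level, where 0.0607% of all features did. As 4 of these 5 are the markers named with Myl7, the count is a description. All atrial-rich hearts lay above all atrial-poor hearts for 8 of the 26 (1.12% of all features did so), the other 3 being Gja5, Myl1 and Pam. The list was chosen with these data known, and its direction is not independent evidence. The median difference was 0.26 on slide 1 and 1.05 on slide 2.

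Gja5, the connexin that forms gap junctions of atrial muscle and of the conduction system, lay between -1.07 and 0.17 in atrial-rich hearts and between -1.68 and -1.29 in atrial-poor hearts, a difference of 1.08 ± 0.26. Myl1, a light chain of skeletal muscle that atria also express, differed by 0.81 ± 0.19, from between 3.11 and 3.98 to between 2.56 and 2.99. Pam, the enzyme that amidates peptides and a major membrane protein of atrial granules, differed by 0.64 ± 0.18, from between 0.87 and 1.15 to between 0.011 and 0.81. Myl1 and Pam, and likewise Bmp10, Kcna5, Chrm2, Angpt1, Myl2 and Myl3 below, fall outside the rule for naming genes and were picked with their values known.

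Other members of the list were higher on average while the sides overlapped. Dkk3, a secreted protein of the Dickkopf family, was at 3.91 in control 4, 2.77 in dtg 4, 2.78 in control 3 and 1.40 in control 1, and at 2.04 in dtg 1, 0.51 in dtg 3, 0.61 in control 2 and 0.94 in dtg 2, with control 1 below dtg 1. The difference was 1.69 ± 0.55. Sbk2, a kinase, differed by 0.87 ± 0.27 and Upk3b, a uroplakin, by 0.99 ± 0.33. Upk3b was at -1.71 in control 4, -2.28 in dtg 4 and -1.86 in control 3, and between -3.65 and -2.91 in the others. It was thus high in the same hearts as the mesothelial genes Msln and Upk1b below, though counted in the atrial list. Angpt1, the ligand of the endothelial receptor Tek, differed by 0.69 ± 0.22.

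Hamp, the iron hormone hepcidin, lay in 2 separate ranges. It was between -1.34 and -0.78 in control 4, dtg 4, control 3 and dtg 1, and between -3.61 and -3.17 in control 1, dtg 3, control 2 and dtg 2. Control 1, an atrial-rich heart with a Myl7 signal of 3.59, was at -3.58, and the difference between the sides of 1.04 ± 0.78 became -0.24 on slide 1 alone. Bmp10, a growth factor made by atrial muscle, was highest in dtg 1, at -3.25, and at -4.79 in control 1, and its difference of 0.80 ± 0.60 became -0.43 on slide 1 alone.

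Not all genes counted as atrial were higher. Kcna5, the channel of the ultrarapid potassium current, was between -0.55 and -0.31 in atrial-rich hearts and between -0.46 and 0.13 in atrial-poor hearts, a difference of -0.30 ± 0.14. Chrm2, the muscarinic receptor of the heart, was at -2.99 in control 4 and -2.47 in dtg 4 but at -1.13 in control 3 and -0.91 in control 1, within the -2.09 to -0.83 of the atrial-poor hearts. Its difference of -0.63 ± 0.51 lay within the spread between hearts.

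Genes of the epicardium and mesothelium, the cell layer that covers the heart, were higher in atrial-rich hearts for all 14 measured members of 16, where 49.3% of all features were. The median difference was 0.33, with 0.25 on slide 1 and 0.50 on slide 2, no member passed either test, and the sides did not overlap for 1, Lrrn4 (all atrial-rich hearts lay above all atrial-poor ones for 1.12% of all features). Msln, the mesothelial surface protein mesothelin, was at 1.03 in control 4, 0.62 in dtg 4, 0.87 in control 3 and -0.45 in control 1, and at -0.14 in dtg 1, -0.50 in dtg 3, -0.50 in control 2 and -0.063 in dtg 2. It was thus high in the 3 hearts with the most Myl7 and not in control 1 or dtg 1.

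Upk1b, a uroplakin of mesothelial cells, was at -3.25, -3.67 and -3.95 in control 4, dtg 4 and control 3 and between -5.28 and -4.86 in the other 5 hearts, a difference of 1.03 ± 0.38 between the sides. Gpm6a, a membrane glycoprotein, was at -1.55, -1.66 and -2.20 in the same 3 hearts and between -3.27 and -2.90 in the others, a difference of 0.98 ± 0.29. Lrrn4, a leucine-rich repeat protein, was between -4.23 and -3.31 in atrial-rich and between -5.07 and -4.29 in atrial-poor hearts, a difference of 0.97 ± 0.26.

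The ventricular list gave no opposite pattern. Of 15 measured members of 16, 6 were higher and 9 lower in atrial-rich hearts, with a median difference of -0.031. Myl2, the ventricular regulatory light chain, lay between 8.77 and 8.91 in atrial-rich and between 8.76 and 8.78 in atrial-poor hearts, a difference of 0.075 ± 0.082 that was -0.48 with normexp correction. Myl3, the ventricular essential light chain, lay between 9.09 and 9.26 and between 9.07 and 9.16, a difference of 0.046 ± 0.090 that was -0.034 with quantile scaling and -0.51 with normexp. Normexp also put Myl7 in control 4 at 3.56, where the main value was 5.31. Myh7, the slow myosin heavy chain, differed by -0.10 ± 0.23 and Hey2, a ventricular transcription factor, by 0.40 ± 0.18.

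The 2 ventricular genes with the most negative differences were low in only 2 atrial-rich hearts, those with the most Myl7. Kcnip2, the subunit of the transient outward potassium channel, was at 0.16 in control 4 and -0.27 in dtg 4, and at 1.04 in control 3 and 1.11 in control 1, against 0.91 to 1.28 in atrial-poor hearts. Ckm, muscle creatine kinase, was at 4.97 in control 4 and 4.70 in dtg 4 and at 5.57 in both other atrial-rich hearts, against 5.66 to 5.86 in the atrial-poor hearts, and was the 1 ventricular gene whose sides did not overlap below (1.23% of all features). Without control 4, dtg 3 and dtg 4, the difference of Kcnip2 went from -0.63 to -0.022 and that of Ckm from -0.54 to -0.13. Both low hearts are among those left out, so smaller differences had to follow.

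Jph2, which joins the calcium stores to the cell membrane, followed the same pattern. It was at 0.38 in control 4 and -0.40 in dtg 4, and between 0.88 and 1.24 in all other hearts, a difference of -0.68 ± 0.31. The difference became -0.14 without control 4, dtg 3 and dtg 4, a choice that again takes out both low hearts. Ppargc1a, a coactivator of mitochondrial genes, was at 1.27 in control 4 and 1.05 in dtg 4 and between 2.22 and 3.11 in the others, a difference of -0.77 ± 0.44, while a second probe of the gene gave -0.11. Fos, an immediate early transcription factor, went the other way, at -1.95 in control 4 and -1.66 in dtg 4 against -4.18 to -3.22 in the others. Egr1, another immediate early factor, was at 1.75 and 0.98 in these 2 hearts and between -0.22 and 0.18 in the others.

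Correlations between arrays reached 0.995, and those that involved control 4, dtg 3 or dtg 4 lay between 0.973 and 0.988, where the lowest among the other 5 arrays was 0.977. The ranges overlap, so this measure does not separate these 3 arrays from the others.

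**Figure D3:**
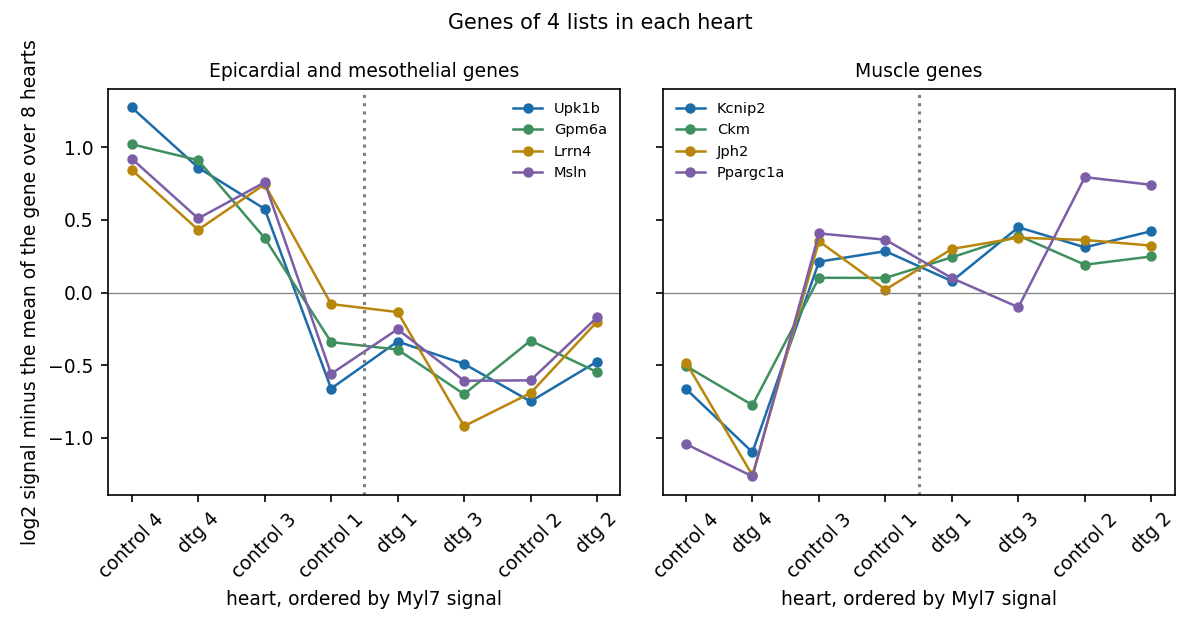
Log2 signal of 4 epicardial and mesothelial genes (left) and 4 muscle genes (right), each minus its mean over the 8 hearts, with hearts ordered by Myl7 signal and the dotted line at the split. The epicardial genes drawn, those with the largest differences of their list, are high in control 4, dtg 4 and control 3. The muscle genes drawn are low in control 4 and dtg 4 alone. They were picked as the most negative members of the ventricular, calcium handling and fatty acid oxidation lists. In those lists 6 of 15, 9 of 20 and 20 of 26 measured members were higher in atrial-rich hearts.

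The conduction list, for the pacemaker and impulse-conducting cells that sit partly in the atria, had 8 of 13 measured members higher and 5 lower, with a median of 0.053. Cacna1h, a T-type calcium channel, was at 0.44 in control 4, -0.21 in dtg 4 and 0.22 in control 3 but at -1.37 in control 1, within the -1.41 to -0.87 of the atrial-poor hearts. Its difference was 0.91 ± 0.37, and a second probe gave 0.17. Cpne5, a calcium-dependent membrane-binding protein, differed by 0.43 ± 0.18, and Cntn2, a cell adhesion protein of conduction cells, by -0.52 ± 0.28. Hcn4, Isl1 and Shox2, defining genes of the pacemaker, were well above background on fewer than 4 arrays and were left out.

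The remaining lists of heart muscle were spread around 0 and none of their members passed either test. The median difference was 0.036 for the sarcomere list (16 of 26 higher), -0.065 for calcium handling (9 of 20), -0.060 for potassium and sodium channels (7 of 17), 0.040 for fatty acid oxidation (20 of 26) and 0.056 for oxidative phosphorylation (15 of 25). Ppara, a nuclear receptor that drives fatty acid oxidation, differed by -0.44 ± 0.16. With median scaling, which moved the median of all features to 0.088, the medians of the ventricular (0.061), calcium (0.027), channel (0.032), endothelial (0.055), skeletal muscle (0.052) and heat shock (0.067) lists turned positive, and with quantile scaling that of the sarcomere list was -0.0088 and that of the skeletal muscle list 0.010. Peptide secretion had 7 of 13 members higher with a median of 0.089, and Npr3, the clearance receptor for natriuretic peptides, differed by 0.45 ± 0.21.

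Among lists of other cell types, the median was 0.14 for fibroblast and matrix genes (17 of 25 higher), 0.17 for valve and endocardium (8 of 13), 0.090 for smooth muscle (7 of 13), 0.10 for nerve and glia (10 of 15) and 0.053 for adipocytes (9 of 14). It was 0.010 for leukocytes (9 of 16), -0.037 for endothelium (8 of 17), -0.096 for erythroid genes (1 of 6), -0.040 for skeletal muscle (4 of 10) and 4.3e-04 for lung and thymus (3 of 5). Col5a2, a fibrillar collagen chain, lay between -3.20 and -2.64 in atrial-rich and between -3.43 and -3.27 in atrial-poor hearts, a difference of 0.43 ± 0.14. Eln, elastin, differed by 0.54 ± 0.24 and Acta2, smooth muscle actin, by 0.32 ± 0.12, the sides overlapping for both. Mbp, a myelin protein, differed by 0.87 ± 0.27, but 2 other probes of the gene gave -0.35 and -0.78.

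No member of the lists of cell state passed either test. The stress and hypertrophy list had 4 of 16 members higher and a median of -0.18, and Gdf15, a secreted stress factor, differed by -0.73 ± 0.26, from between -1.37 and -0.39 to between -0.61 and 0.37. The heat shock list had 5 of 13 higher with a median of -0.025, and Hspa1a, an inducible chaperone, lay between -2.50 and -1.21 in atrial-rich and between -1.71 and 0.67 in atrial-poor hearts, with control 2 highest. Immediate early genes had 13 of 17 higher with a median of 0.098, Nr4a1 differing by 0.68 ± 0.46 and Jun by -0.56 ± 0.30. Clock genes had 10 of 18 higher with a median of 0.012, and the difference of Nr1d1, a repressor of the clock, of -1.04 ± 0.80 came from dtg 4 at -3.13 where the others were between 0.13 and 0.81.

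**Figure D4:**
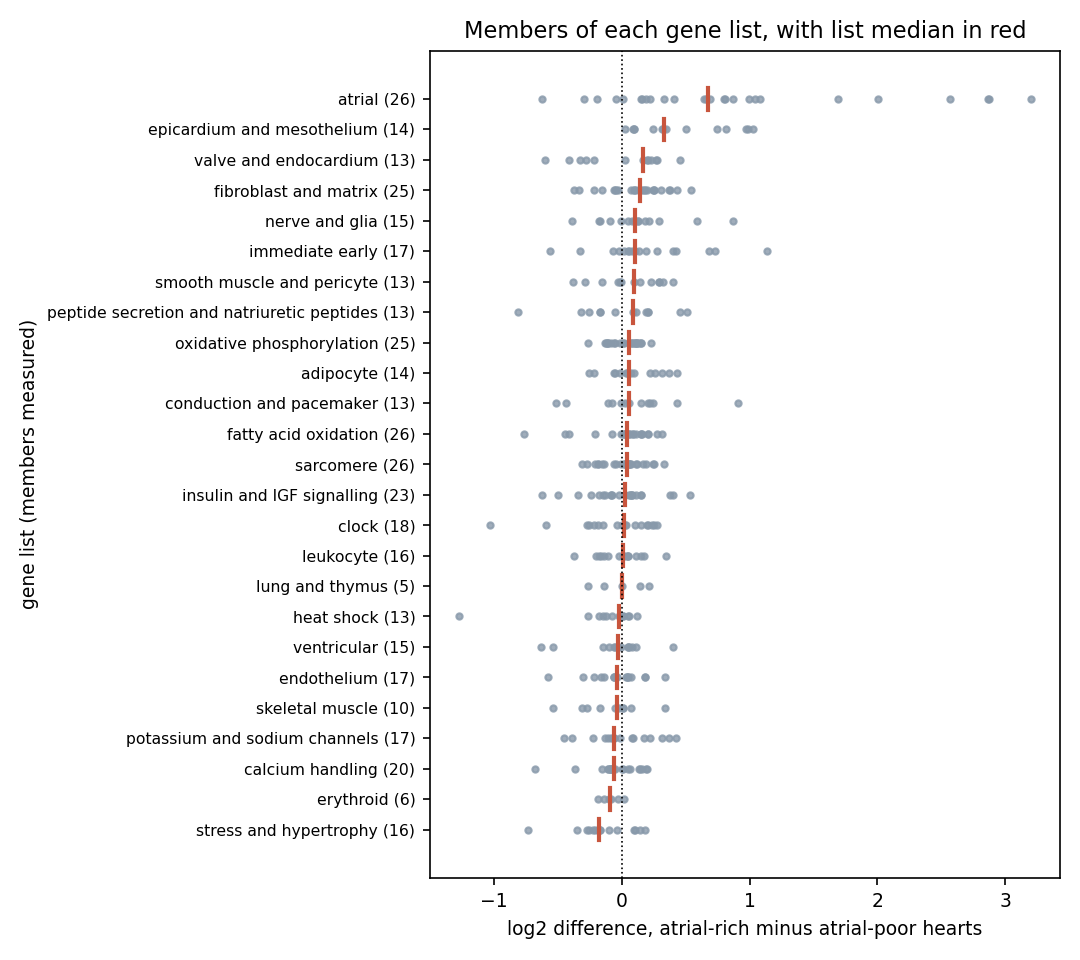
Log2 difference between atrial-rich and atrial-poor hearts for every measured member of the 25 gene lists (points), with the list median as a red bar and the median of all features as a dotted line. The number of measured members is in brackets. The atrial list reaches 3.20 with a median of 0.67, the epicardial list lies wholly above 0, and the other lists are spread on both sides of it.

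The features with the smallest unadjusted p between the sides were not all atrial genes. Among those higher in atrial-rich hearts, Uts2b, a peptide related to urotensin, was well above background on all 4 atrial-rich arrays and on none of the atrial-poor ones. It was therefore at least 3.07-fold higher, set against the lowest signal well above background on the atrial-poor arrays or its own signal there, whichever was higher. Crb2, a protein of cell polarity, was at least 1.86-fold higher on the same basis. Both passed the filter on dim probes only through the atrial-rich arrays, so they had to differ in this direction and are described only. Slc17a7, a vesicular glutamate transporter, lay between -2.53 and -2.27 in atrial-rich and between -3.67 and -2.83 in atrial-poor hearts, a difference of 0.91 ± 0.18. Il18r1, the receptor of interleukin 18, differed by 0.83 ± 0.16 and Cdon, a cell surface partner of hedgehog signalling, by 0.49 ± 0.091, though a second Cdon probe gave 0.053. None passed the adjusted threshold, limma's adjusted p being 0.999 for each.

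Among those lower in atrial-rich hearts the differences were smaller. Ms4a6d and Ms4a6c, neighbouring genes of a membrane protein family found on macrophages, differed by -0.45 ± 0.11 and -0.37 ± 0.091, and members of one family may share signal on such probes. Plekhf1, an endosomal protein, differed by -0.52 ± 0.13, Tmem82, a membrane protein, by -0.65 ± 0.17 and Mgat4a, a glycosyltransferase, by -0.47 ± 0.12. Uhmk1, a kinase, differed by -0.75 ± 0.19, Msantd1 by -0.35 ± 0.092 and Uty, a gene of the Y chromosome, by -0.80 ± 0.19 where a second probe gave -0.016. The adjusted p in limma was 0.999 for each of these 8, and with normexp correction 6 of them changed sign. That correction also put Myl7 in control 4 at 3.56, where the main value was 5.31.

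With the side as a term, dtg and control hearts differed in 0 of 21410 features (0%) at an adjusted p of 0.05 in limma, with 243 at an unadjusted p under 0.05 (168 higher in dtg hearts and 75 lower). Without the atrial term there were also 0, with 162 at an unadjusted p under 0.05. Igf1r was at 0.064, 0.096, 0.26 and 0.92 in controls 1 to 4 and at -0.41, -0.32, 0.060 and 0.30 in dtg 1 to 4, so the genotypes overlapped. Dtg minus control was -0.22 ± 0.25 with the side as a term and -0.43 without it. Between the sides, Igf1r was 0.53 ± 0.21 higher in atrial-rich hearts, which are mostly control, and 0.34 higher within slide 1, where the genotypes are balanced. The position of the Igf1r probe relative to exon 3 is not given in the files, so its level is no check of the excision.

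The 4 features with the smallest unadjusted p in each direction of the genotype fit were Apol11b (0.77 ± 0.13), Ermn (1.03 ± 0.23), Pnma2 (1.10 ± 0.25) and Notch1 (1.07 ± 0.26), higher in dtg hearts, and Gys1 (-0.54 ± 0.12), Fam189a2 (-0.53 ± 0.14), Nfil3 (-0.69 ± 0.19) and Fabp7 (-0.43 ± 0.12), lower. These are log2 differences with SE over 8 hearts, and limma's adjusted p was 0.9999 for each. Of those higher, dtg 4 was at 5.20 for Ermn (3.97 to 4.30 in the other dtg hearts), 3.48 for Pnma2 (2.10 to 2.63) and 0.79 for Notch1 (-0.61 to -0.24). Apol11b was not highest in dtg 4. With the side as a term, the 4 atrial markers were higher in dtg hearts by 0.51 ± 0.52 for Nppa to 0.83 ± 0.78 for Sln. With no such term they were lower in dtg hearts, from -0.62 ± 0.81 for Nppa to -1.01 ± 1.15 for Mybphl, so their direction depends on the side term, and none passed limma's test in either fit. Within slide 1 the fit called 4 features, Hamp, Fgf12, Cst9 and ENSMUST00000144863, with 1 residual degree of freedom among 4 hearts, and without control 2 it called 9.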

How the data were processed

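RNA of 4 control and 4 dtg hearts was hybridised to 1-colour (Cy3) Agilent arrays, 100 ng a sample, per the labels' protocols. For each array the authors deposited scanner output (Agilent Feature Extraction 10.7.3.1, per the submitters' processing notes) with processed signals on a linear intensity scale, corrected for local background per the file headers. They also deposited a series table on the log2 scale, which by comparison with the scanner signals was quantile normalized and centred on each probe's median (r from 0.9999 to 1 a column, column medians from -0.032 to 0.032). The sources used here do not give its tool.

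Control spots and outlier marks were left out, spots of a probe averaged, and each array's 75th percentile (737.6 to 1027 intensity units) subtracted on the log2 scale. Between 59.1% and 71.4% of 39429 probes were well above background on each array, and no spot was saturated. Through RefSeq accessions (GRCm38.p6, names only), 26369 probes had a symbol and 13060 kept the file's name. The 26095 probes well above background on at least 4 of 8 arrays gave 21411 features, 14807 with a symbol, the brightest probe standing for a gene. The number of arrays limits the precision.

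Differences were tested with limma 3.58.1 (R 4.3.3; lmFit, eBayes) and Benjamini-Hochberg adjustment over all features, threshold 0.05, and the procedure was tested on simulated data. The sides, the 25 gene lists and the markers were chosen with earlier results of these data known. Named genes are the markers and Igf1r; per direction up to 15 called features whose sides do not overlap, made up to 8 by smallest unadjusted p; 4 per direction in the genotype fit; and up to 4 members a list (10 atrial, 6 ventricular and conduction) by size of difference, leaving out accessions, clones and gene models. Not every gene so taken is printed. Alternatives covered scaling, background (normexp, offset 50), filters, probes, slide, replicate number, variance model, covariates and left-out hearts.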

Additional observations from a re-analysis of the deposited data

Results flagged for a closer look

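Among the 4 hearts of each genotype, a single heart stood apart for 13 of 148 sets of values examined. The sets were the named genes and Myl7, in control and in dtg hearts. Most of the genes were named for their differences or with their values known, and all share the same hearts. The count is therefore a description and was not compared with chance. Most of the 13 concern dtg 4 and control 4, the hearts with the most Myl7. On the log2 scale, dtg 4 was at 4.70 for Ckm (5.72 to 5.86 in the other dtg hearts), -0.40 for Jph2 (1.16 to 1.24), -1.66 for Fos (-4.18 to -3.79), -3.67 for Upk1b (-5.02 to -4.86) and -3.13 for Nr1d1 (0.67 to 0.79). It was also at -1.26 for Mbp (-2.27 to -2.13), -0.97 for Cdon (-1.61 to -1.54), -4.77 for Uty (-3.86 to -3.72) and 8.91 for Myl2 (8.76 to 8.78). Control 4 was at 0.16 for Kcnip2 (1.04 to 1.14 in the other controls), 4.97 for Ckm (5.57 to 5.66) and -2.99 for Chrm2 (-1.13 to -0.91). Control 2, the control with the least Myl7, was at 0.59 for Pam (1.08 to 1.15).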

How the results depend on the processing

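Between the sides 0 features were called under each alternative run except the 6 called without control 1 and dtg 1 and the 13 called on the Myl7 level; leaving out each heart gave 0. On the Myl7 level, 0 were called with normexp, where 7711 had a limma p under 0.05 before adjustment, 6581 of them higher with Myl7. Normexp without spots darker than their background called 16, of which 12 were among the 13. In slide 1 alone, in slide 2 alone, with the replicate block and without control 4, dtg 3 and dtg 4, 0 were called. With no filter, with genotype and with genotype and slide, 8 were called each time. Quantile scaling called 11, the deposited values 11, median scaling 13 and the mean of probes 13. An intensity trend gave 14, the filter on all 8 arrays 15, slide as a block 16 and array weights 19. An adjusted p under 0.1 gave 20, and leaving out each heart 8 to 12. With side as a term, genotype gave 4 within slide 1 and 0 to 9 without each heart. It could not be fitted within slide 2, and a second Myl7 probe does not exist on the array. Replicate numbers correlated at 0.54, -0.55, 0.15 and 0.16 for numbers 1 to 4. These values cannot show whether hearts of the same number were paired. The replicate block left 0 calls for side (479 at unadjusted p under 0.05) and 0 for genotype (399). With normexp, Myl7 was at 3.56 in control 4 and 4.18 in dtg 4, where the main values were 5.31 and 4.83. Normexp without spots darker than their background gave 5.19 and 4.78. The cause of the changes of sign below was not tested.

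Differences between the sides that changed sign were, with normexp, Myl2 -0.48, Myl3 -0.51, Cntn2 1.01, Chrm2 0.40, Acta2 -0.20, Ms4a6d 0.46, Ms4a6c 0.52, Uty 1.03, Uhmk1 0.92, Msantd1 0.56 and Mgat4a 0.69, and dtg minus control of Fabp7 0.31. With the replicate block they were Hamp -0.16, Bmp10 -0.0054, Ppargc1a 0.39, Egr1 -0.085, Irs2 0.027, Chrm2 0.59 and Jun 0.17. Within slide 1 they were Hamp -0.24, Bmp10 -0.43 and Myh7 0.045. Myl3 was -0.034 with quantile scaling, -0.034 in the deposited values and -0.0021 within slide 2, Mbp -0.087 as a mean of probes, and Myh7 from -0.26 to 0.058 without each heart in turn (positive without control 3).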

Other observations

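Among the insulin and IGF signalling genes, 12 of 23 measured members were higher and 11 lower in atrial-rich hearts, with a median log2 difference of 0.027, and none passed limma's adjusted test on the sides or on the Myl7 level. Irs2, an adaptor of the insulin receptor, was at -0.11 in control 4, -0.27 in dtg 4, 0.29 in control 3 and 0.72 in control 1, and at 0.58 in dtg 1, 0.37 in dtg 3, 1.41 in control 2 and 0.78 in dtg 2. Its difference of -0.63 ± 0.28 (SE, 4 hearts a side) came with control 2 highest and dtg 4 lowest, and the sides overlapped.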
